A study of Arabidopsis thaliana with 12 samples.

Results

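Root genes that act in sulfate assimilation and in the making of siroheme were measured at 3 loci, APS3 (AT4G14680, probe set 245254_at), SIR (AT5G04590, 250846_at) and SIRB (AT1G50170, 262417_at). They were taken by gene from the platform annotation, which pairs each of them with 1 probe set. They are 3 of 13286 genes that have a probe set of their own in that annotation, and the array held 22746 probe sets besides its controls. The samples were whole roots of 10-day-old Arabidopsis thaliana seedlings of the Columbia ecotype, either wild type or chl1-5. The latter lacks a working CHL1 (NRT1.1), a transporter and sensor of nitrate. Both genotypes grew side by side on shared meshes. Until T0, nitrogen came from ammonium succinate alone (12.5 mM) in all 4 groups, the last 3 h of it at pH 5.5. The T0 roots of each genotype were then collected, and the T0.5 roots were collected after 30 min in medium that held 25 mM KNO3 in place of the ammonium salt. Each group had 3 arrays, numbered 1 to 3 by independent experiment, and each array held RNA of a pool of about 900 seedlings.

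Plants reduce sulfate in plastids. ATP sulfurylase activates it to adenosine phosphosulfate, APS reductase turns that into sulfite, and sulfite reductase turns sulfite into sulfide, which enters cysteine. Sulfite reductase and nitrite reductase both carry siroheme, an iron tetrapyrrole that branches off the pathway to heme and chlorophyll, so both assimilation routes draw on the same cofactor.

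The values are fluorescence signals per probe set on a linear scale, and a change is given as a difference of log2 signals, where 1 is a doubling. Signals of different probe sets are not comparable with each other. All 3 probe sets lay at or above the 40th percentile of the array on all 12 arrays, so none was near the dim end. The deposited values share a trimmed mean, between 499.4 and 500.6 on each array, while the array medians ran from 176.2 to 195.4. Of the root markers 2 of 10 had a named probe set. PYK10, a beta-glucosidase of roots, lay between 15467.3 and 22198.4, and EXP7, a root hair expansin, between 627 and 1409.7. Their summed signal spanned 17469.8 to 23359.6 on wild-type arrays and 16659.5 to 22034.6 on chl1-5 arrays. Most of this sum was PYK10 signal, so it says little about EXP7. Of the shoot markers 1 of 8 was named, RCA, rubisco activase, at 538.9 to 697.8. CHL1 itself had no named probe set and was not checked here. In RNA from whole roots, fewer cells of a type and less transcript per cell cannot be told apart. The step from T0 to T0.5, called the nitrate response below, removed ammonium succinate and moved the plants as well, and these changes cannot be told apart from nitrate in these samples.

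APS3, an ATP sulfurylase and so an enzyme of the first step of sulfate assimilation, doubled within 30 min over both genotypes. In wild-type roots its signal was 448.3, 622.5 and 541.1 at T0 in replicates 1, 2 and 3. At T0.5 it was 610.5, 1416.2 and 1619. Replicates 2 and 3 more than doubled, while replicate 1 ended within the range of the T0 arrays, so the wild-type groups overlapped. In chl1-5 the T0 signals were 517.1, 596.3 and 521.8. The T0.5 signals were 610.4, 1371.6 and 1475.1. Here every T0.5 array lay above every T0 array, as for 7.72% of all probe sets tested in chl1-5 (7.76% in wild type), and again replicate 1 moved least.

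The mean response of APS3 over both genotypes was 2.04-fold (log2 1.03, SE 0.26, 95% interval 0.47 to 1.59, n = 3 arrays per group, limma adjusted p = 0.0198). It stood at place 348 from the top among 14291 probe sets ordered by their mean response. Of the 3 genes, APS3 was the 1 called at an adjusted p under 0.05, beside 14% of all probe sets tested (6.42% called higher). Taken alone, wild type gave 2.1-fold (log2 1.07, SE 0.36, adjusted p = 0.121) and chl1-5 gave 1.97-fold (log2 0.98, SE 0.36, adjusted p = 0.186). By limma 0 of the 3 genes were called in wild type (background 5.58%) and 0 in chl1-5 (background 3.86%). In each genotype 1 of the 3, APS3, had an unadjusted p under 0.05, beside 2753 of all 14291 probe sets in wild type and 2431 in chl1-5. With the replicate number as a block, which compares arrays within one experiment, APS3 passed in wild type (adjusted p = 0.00898, background 11.8%) and in chl1-5 (adjusted p = 0.0182, background 9.9%).

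**Figure D1:**
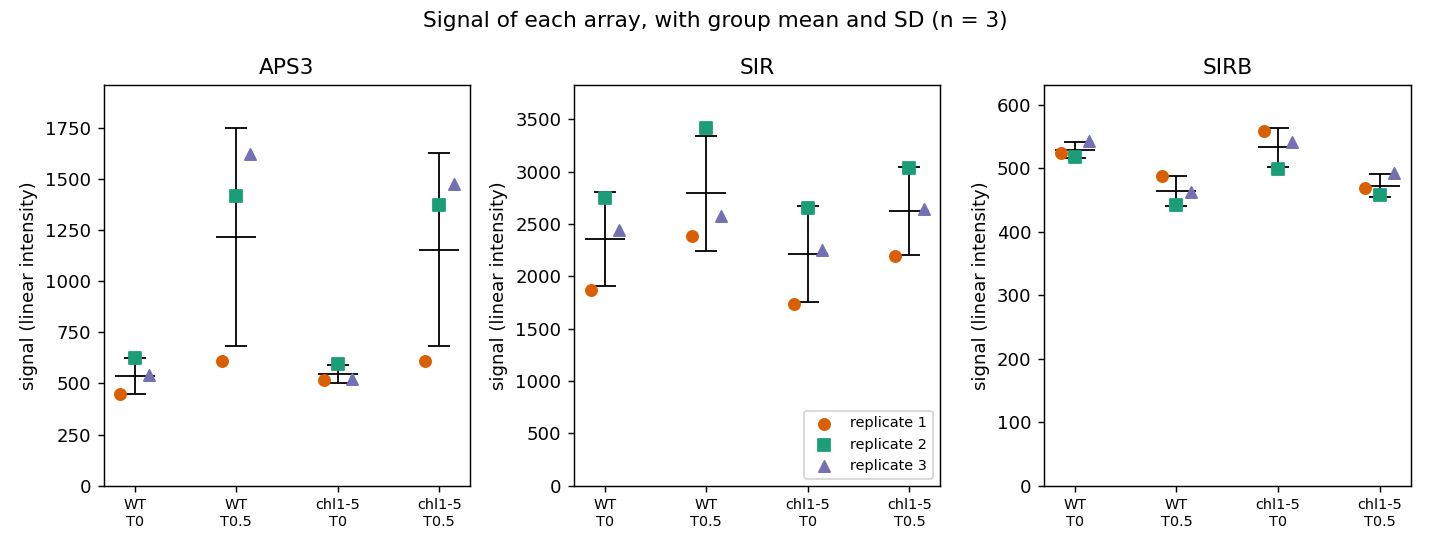
Signal (linear intensity, y axis from 0) of APS3, SIR and SIRB on each of the 12 arrays, by group on the x axis. Marker shape and colour give the replicate number, and black bars give the group mean and SD (n = 3). APS3 in replicate 1 stays near 610 at T0.5 in both genotypes, while replicates 2 and 3 lie between 1371.6 and 1619.

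Within experiments the APS3 response was 0.45, 1.19 and 1.58 on the log2 scale in wild type for replicates 1, 2 and 3. In chl1-5 it was 0.24, 1.2 and 1.5. All 6 pairs were positive, as for 8.23% of all probe sets tested, and the order of the experiments was the same in both genotypes. The median over the 917 probe sets called higher in the mean response was also lowest in replicate 1, at 0.65 in wild type against 0.95 and 0.94, and at 0.54 in chl1-5 against 0.87 and 0.86. As a sign of RNA quality, the GAPDH controls' ratio of 3' over 5' signal was 0.86, 1.03 and 0.97 in the replicate 1 arrays of wild-type T0, wild-type T0.5 and chl1-5 T0, the lowest of their groups, and 1.23 in the chl1-5 T0.5 array, the highest of its group. The actin ratio of replicate 1 was the highest of its group at wild-type T0 (15.2) and T0.5 (12.58). At chl1-5 T0 (10.46) and T0.5 (9.72) it was the lowest. The ubiquitin ratio of replicate 1 was the lowest in wild type (1.68 and 2.07) and in the middle in chl1-5 (2.1 and 2.03). Over all arrays GAPDH ran from 0.86 to 1.38, ubiquitin from 1.68 to 2.24 and actin from 9.72 to 18.42. These controls did not order the arrays alike. The part of RNA quality in the smaller response of replicate 1 was not tested.

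Single arrays decided some of these calls. Without the wild-type T0.5 array of replicate 1 the wild-type response was 1.51 (adjusted p = 0.0127), and without the chl1-5 T0.5 array of replicate 1 the chl1-5 response was 1.39 (adjusted p = 0.0273). With all replicate 1 arrays left out, the responses were 1.38 (adjusted p = 0.000679) and 1.35 (adjusted p = 0.000974). The mean response passed in 11 of 15 fits that left out an array or an experiment. It missed the threshold without the T0.5 array of replicate 2 of wild type (0.94, adjusted p = 0.0538) or of chl1-5 (0.94, adjusted p = 0.0555), without replicate number 2 (0.94, adjusted p = 0.230) and without replicate number 3 (0.77, adjusted p = 0.228).

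**Figure D2:**
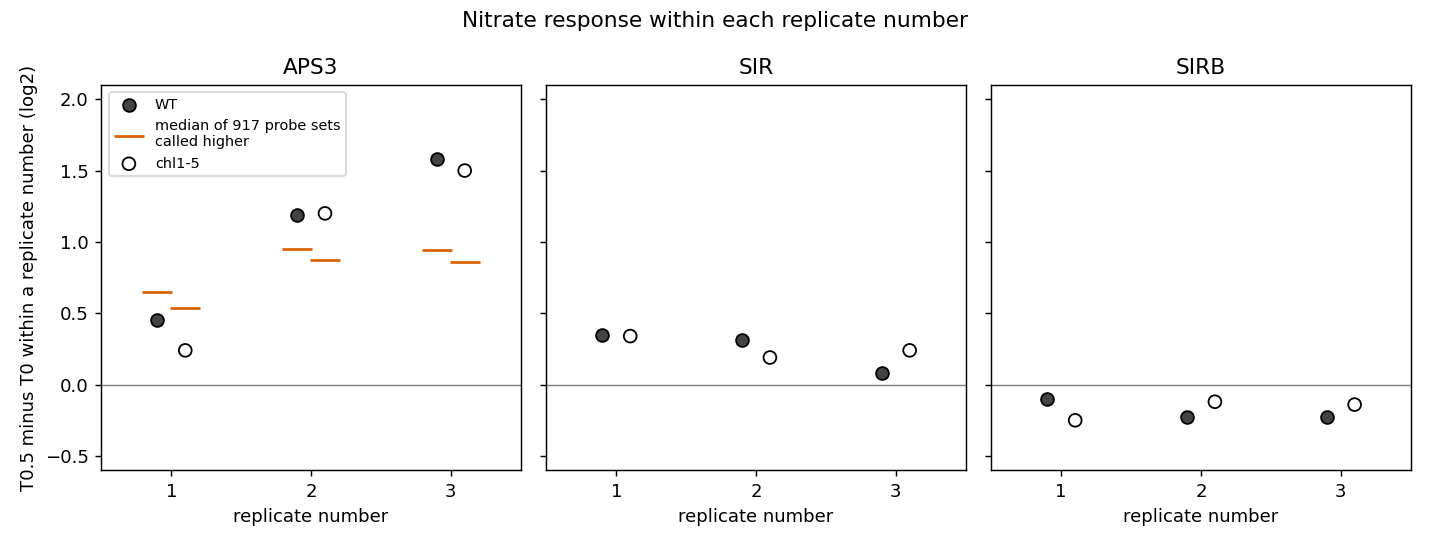
Difference of log2 signals, T0.5 minus T0, between arrays with the same replicate number (x axis) for each gene, with filled circles for wild type and open circles for chl1-5. Orange bars in the APS3 panel are the medians over the 917 probe sets called higher in the mean response. All 6 APS3 and all 6 SIR values are above 0 and all 6 SIRB values below it.

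SIR, the sulfite reductase of the plastid and itself a siroheme enzyme, was slightly higher after nitrate within every experiment, by less than its spread between experiments. Its wild-type signals were 1870.9, 2751.8 and 2445.4 at T0 in replicates 1, 2 and 3, and 2380.8, 3416.8 and 2579.4 at T0.5. In chl1-5 they were 1733.8, 2655.4 and 2248 at T0, and 2192.7, 3036.3 and 2646.6 at T0.5. In all 4 groups replicate 1 was lowest and replicate 2 highest, and the T0 and T0.5 groups of each genotype overlapped.

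The SIR response was 0.25 (SE 0.20, adjusted p = 0.542) in wild type and 0.26 (SE 0.20, adjusted p = 0.577) in chl1-5 on the log2 scale. With an array or an experiment left out these ranged over 0.09 to 0.37 and 0.09 to 0.40, and none passed. The wild-type value was 0.09 without the T0 array of replicate 1 or the T0.5 array of replicate 2, and the chl1-5 value was 0.09 without the T0 array of replicate 1 and 0.14 without the T0.5 array of replicate 2. The mean over both was 1.19-fold (log2 0.25, SE 0.14, 95% interval -0.05 to 0.55, adjusted p = 0.262) and did not pass. Within experiments the wild-type response lay between 0.08 and 0.35 and that of chl1-5 between 0.19 and 0.34. It was above 0 in 6 of 6 pairs, as for 8.23% of all probe sets tested. With the replicate block the same mean response had an SE of 0.06 and passed (95% interval 0.13 to 0.37, adjusted p = 0.00733). In that fit 2 of the 3 genes, APS3 and SIR, were called in the mean response, where 24.2% of all probe sets were. With the replicate number as a random effect it did not pass (adjusted p = 0.0772). In contrast to APS3, SIR had no smaller response in replicate 1, where it averaged 0.34 over both genotypes against 0.20 in replicates 2 and 3.

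SIRB, the sirohydrochlorin ferrochelatase that inserts iron in the last step of siroheme synthesis, was slightly lower after nitrate in both genotypes. In wild type its signals were 524.4, 518.8 and 543.2 at T0 in replicates 1, 2 and 3, and 488.1, 442.2 and 462.9 at T0.5. In chl1-5 they were 558.7, 499.1 and 541.9 at T0, and 469.1, 457.8 and 492.4 at T0.5. Every T0.5 array lay below every T0 array of the same genotype, which 25.3% of all probe sets tested showed in one or the other direction in wild type (17.6% lower at T0.5) and 19.8% in chl1-5 (12.1% lower). Groups were tight, with SDs from 12.8 to 30.7 signal units.

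The SIRB response was -0.19 (SE 0.10, adjusted p = 0.309) in wild type and -0.17 (SE 0.10, adjusted p = 0.395) in chl1-5 on the log2 scale. The mean over both was -0.18 (SE 0.07, 95% interval -0.33 to -0.03), a change of -11.7%, and did not pass (adjusted p = 0.0984). It also missed the threshold with the replicate block (adjusted p = 0.0599) and passed with the replicate number as a random effect (adjusted p = 0.0462). The median response of all probe sets tested was itself -0.08. When arrays were scaled to a common median, which put that median at -0.01, the mean SIRB response was -0.11 (adjusted p = 0.396), so its size depended on the scaling.

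The 3 genes thus differed in how their signal varied over the 12 arrays. For APS3, 57.7% of the sum of squares of the log2 signal lay between T0 and T0.5 and 27.7% between replicate numbers. For SIR, 22.8% lay between times and 70.7% between replicate numbers. For SIRB, 74.2% lay between times and 16.1% between replicate numbers. The share between genotypes was 0.0121% for APS3, 2.88% for SIR and 0.827% for SIRB. These are shares of each gene's own total in the values as deposited, so a larger share is not a larger response. The SIRB total was small, with log2 SDs within groups from 0.03 to 0.08. Its mean response of -0.18 was not called without a block. The replicate share is taken over both times. APS3 varied more at T0.5, with log2 SDs of 0.76 in wild type and 0.71 in chl1-5, against 0.24 and 0.12 at T0. All 3 genes kept 1 sign of response in all 6 pairs of arrays, which 23.6% of all probe sets did. The signal was higher in all 6 for 8.23%, as for APS3 and SIR, and lower in all 6 for 15.4%, as for SIRB.

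No difference between chl1-5 and wild type passed for any of the 3 genes. Before nitrate the difference, chl1-5 minus wild type, was 0.03 (95% interval -0.76 to 0.82) for APS3, -0.09 (-0.52 to 0.33) for SIR and 0.01 (-0.20 to 0.22) for SIRB on the log2 scale. After nitrate it was -0.06 (-0.85 to 0.73) for APS3, -0.08 (-0.51 to 0.35) for SIR and 0.03 (-0.18 to 0.23) for SIRB. The adjusted p of each was 1 by limma, and the background of calls was 0.028% before and 0.224% after nitrate. At an unadjusted p under 0.05 there were 0 of the 3 genes, beside 134 of all 14291 probe sets before and 414 after nitrate.

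The responses of the genotypes were compared by the interaction term. The chl1-5 response minus the wild-type response was -0.09 (95% interval -1.21 to 1.03) for APS3, 0.01 (-0.60 to 0.62) for SIR and 0.02 (-0.28 to 0.31) for SIRB. By limma 0 of 3 were called, beside 0.035% of all probe sets. At an unadjusted p under 0.05 there were 0 of 3, beside 277 of all 14291 probe sets. With the replicate block the intervals narrowed to -0.79 to 0.61 for APS3, -0.24 to 0.26 for SIR and -0.26 to 0.29 for SIRB. Even these bounds do not show that the genotypes responded alike. For APS3 they leave room for a chl1-5 response from 0.578 to 1.53 times the wild-type fold.

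**Figure D3:**
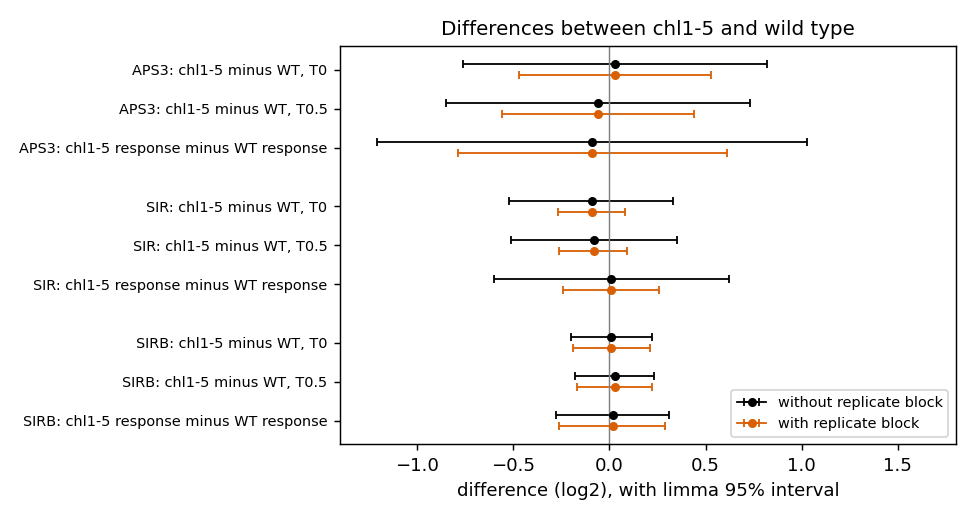
Differences between genotypes on the log2 scale (x axis) for APS3, SIR and SIRB, before nitrate, after nitrate and in the response, with 95% intervals from limma without (black) and with (orange) the replicate block. Every interval spans 0, and those of APS3 are the widest, down to -1.21 and up to 1.03 for its response.

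The neighbouring steps were read from lists of sulfate assimilation, siroheme, tetrapyrrole and sulfur limitation genes. Of 68 listed genes besides the 3, 11 had a probe set named for them alone and 7 of these were bright enough to be tested. The APS reductases, the sulfate transporters, the cysteine synthesis genes, the nitrate and nitrite reductases and UPM1, the methyltransferase that opens the siroheme branch, had no such probe set and were not analysed here. In the mean response 0 of the 7 were called higher (background 6.42%) and 1, GSA1, was called lower (background 7.56%). The 7 genes had a median of -0.05, from -0.27 to 0.41, against -0.08 over all probe sets. By limma 0 of the 7 were called in either genotype alone. At an unadjusted p under 0.05 there were 2 in wild type, beside 2753 of all 14291 probe sets, and 0 in chl1-5, beside 2431.

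Among ATP sulfurylases APS4 could be set beside APS3. Its signals ran from 6129.3 to 8295 over all 12 arrays, and its T0 and T0.5 groups overlapped in both genotypes. Its mean response was 0.01 (SE 0.10, 95% interval -0.20 to 0.21, adjusted p = 0.979), whose interval lies below that of APS3. The difference between the 2 genes was not tested itself.

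**Figure D4:**
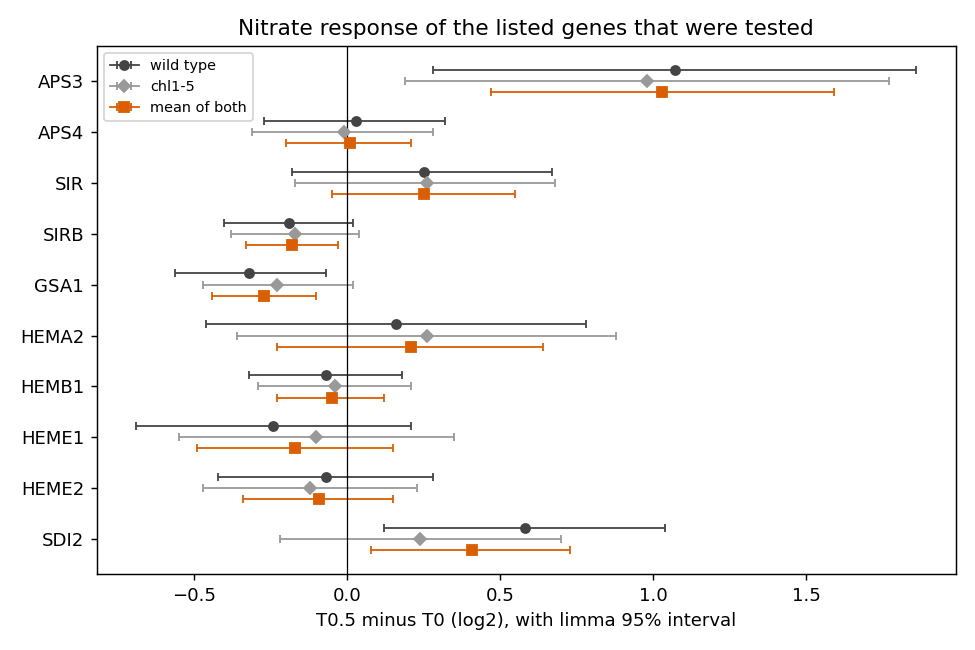
Nitrate response (T0.5 minus T0, log2, x axis) of the 10 listed genes that were tested, in wild type, in chl1-5 and as the mean of both, with 95% intervals from limma. The mean responses of APS3 (1.03), SIRB (-0.18), GSA1 (-0.27) and SDI2 (0.41) have intervals that leave out 0. Of these, APS3 and GSA1 passed after adjustment over all probe sets.

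GSA1, a glutamate-1-semialdehyde aminomutase that makes the precursor of all tetrapyrroles, fell by 0.27 on the log2 scale in the mean response (SE 0.08, adjusted p = 0.0385). In wild type its signal went from 766.3, 799.9 and 817.1 to 623.6, 614.8 and 677.5 in replicates 1, 2 and 3. In chl1-5 it went from 670.6, 840.1 and 865.2 to 677.4, 648.8 and 693.2. The wild-type groups did not overlap, as for 17.6% of all probe sets tested that were lower at T0.5 in wild type. In chl1-5 the T0 array of replicate 1 was as low as the T0.5 arrays. The call was lost under median scaling (-0.20, adjusted p = 0.145) and quantile normalization (-0.25, adjusted p = 0.0648). Of 15 fits that left out an array or an experiment it passed in 3, those without the wild-type T0.5 array of replicate 3, without the chl1-5 T0 array of replicate 1 and without replicate number 1.

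The other enzymes of the tetrapyrrole trunk and the heme branch did not pass. HEMB1, a 5-aminolevulinate dehydratase, stood at -0.05 (SE 0.08) in the mean response, HEME1 and HEME2, both uroporphyrinogen decarboxylases of the branch that competes with siroheme, at -0.17 (SE 0.15) and -0.09 (SE 0.11). HEMA2, a glutamyl-tRNA reductase, stood at 0.21 (SE 0.20), with wild-type T0.5 signals of 232.3 to 559.7 around T0 signals of 314.9 to 332. Its chl1-5 signals were 286.3 to 561.2 at T0.5 and 291.1 to 339.9 at T0. In replicates 1, 2 and 3 the HEMA2 response was -0.52, 0.16 and 0.82 in wild type. In chl1-5 it was -0.02, 0.04 and 0.75, so replicate 3 was highest in both genotypes. HEMA3, HEMB2, HEMF2 and BGLU28 were dim in all 4 groups and were not tested.

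SDI2 (AT1G04770), a gene known to rise when sulfur is short, did not pass in the mean response (0.41, SE 0.15, adjusted p = 0.0927). In wild type its signals were 863.4, 907 and 690.6 at T0 and 1372.3, 1228.7 and 1064.8 at T0.5. These groups did not overlap, as for 7.76% of all probe sets tested that were higher at T0.5 in wild type. In chl1-5 they were 831.2, 869.8 and 534.2 at T0 and 1115, 815.4 and 694.5 at T0.5, with overlap. With the replicate block it passed in wild type (0.58, SE 0.12, adjusted p = 0.00881) and in the mean response (adjusted p = 0.00527), and not in chl1-5 (0.24, SE 0.12, adjusted p = 0.260). Without the block and with an array or an experiment left out, its response ranged over 0.46 to 0.67 in wild type and 0.01 to 0.40 in chl1-5, with none passing. The chl1-5 value was 0.01 without the T0 array of replicate 3, 0.05 without the T0.5 array of replicate 1, 0.14 without replicate number 1, and 0.40 without replicate number 2. Its difference of responses did not pass (-0.34, SE 0.30, adjusted p = 1), also not with the block (SE 0.17, adjusted p = 1). In the mean response it passed under median scaling too (0.47, adjusted p = 0.0451).

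Over the same arrays the root hair expansin EXP7 fell by 0.76 in the mean response (SE 0.12, adjusted p = 0.00124). PYK10 stood at 0.07 (SE 0.11) and the shoot marker RCA at 0.03 (SE 0.09), neither of which passed. The part of root hair transcripts in the responses of APS3, SIR and SIRB was not tested.

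The genes whose log2 signal ran most like that of each of the 3 were found by Pearson's r over the 12 arrays among 7632 other named loci, as a description. The arrays share group and experiment, so r reflects both. Genes picked by likeness to a gene that responds share its response in part by that choice, so their calls are not a separate result. For APS3 these were AT3G17920 (r = 0.980), B120, a receptor-like kinase gene (0.978), AT1G14480 (0.978), CML38, a calmodulin-like gene (0.977), and AT5G40540 (0.975). By limma without the replicate block AT1G14480 (mean response 1.95, adjusted p = 0.00573), CML38 (2.13, adjusted p = 0.00742) and AT5G40540 (0.62, adjusted p = 0.0269) rose. In that fit B120 (0.72, adjusted p = 0.0770) and AT3G17920 (0.33, adjusted p = 0.0710) did not pass, and 6.42% of all probe sets were called higher. The least alike was AT3G50860 (r = -0.970).

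For SIR the nearest were AT2G16250 (r = 0.959), AT2G45540 (0.951), AT5G39570 (0.932), AT3G15680 (0.931) and FY, an RNA 3' end processing factor (0.918). Their mean responses lay between 0.14 and 0.32, and none of the 5 passed limma without the replicate block (adjusted p from 0.197 to 0.605). The least alike was AT3G03330 (r = -0.958). For SIRB the nearest were AT3G47160 (r = 0.967), AT1G75420 (0.937), AT2G46150 (0.937), AT5G15190 (0.933) and AT1G07020 (0.933). All 5 of these fell in the mean response, by 0.56, 0.35, 0.69, 0.77 and 0.26 on the log2 scale (adjusted p from 0.000922 to 0.0247), each by more than SIRB. They were picked by their likeness to SIRB, and 7.56% of all probe sets were called lower. The least alike was AT2G34300 (r = -0.964), which rose by 0.42.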

How the data were processed

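Root RNA (6 µg per array) was hybridised to 12 Affymetrix ATH1 arrays, each with a single colour. The authors deposited linear fluorescence intensities, 1 signal per probe set, made with MAS5 (version not given in the sources used here), per the submitters' processing notes. Their table held 22810 probe sets, and 64 controls were left out. Names came from the platform annotation, joined through gene numbers to the TAIR10.1 annotation. No detection calls or coordinates were used, no 2 arrays were identical, and the number of arrays limits the precision.

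Signals under 0.1 were set to 0.1 before log2 was taken. Probe sets that reached their array's 40th percentile on 3 or more arrays, 14291, were fitted with limma 3.58.1 in R 4.3.3 (lmFit, contrasts.fit, eBayes with trend), with the 4 group means over all 12 arrays. Tests were two-sided with Benjamini-Hochberg adjustment over all probe sets, and a call is an adjusted p under 0.05. The fit without a block was run on simulated data with independent noise and no effect of the replicate number. That run therefore does not cover arrays that are paired by experiment, as these are.

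The labels mark each replicate number as an independent experiment with its own pool. Across probe sets, deviations from the group mean correlated at 0.21 to 0.77 in all 18 same-numbered pairs from different groups, and at -0.63 to -0.01 for different numbers. Deviations sum to 0 within a group, so the second range follows in part from the first. The random block estimated a correlation of 0.26 within a replicate number. The numbers pair the arrays, and the blocked value is given where it changes a call of a listed or neighbouring gene. Genes named by likeness alone were read only without the block. The 3 genes, the gene lists and the tests were chosen with earlier results of these data known. Genes were named if they stood on a list or were among the 5 most alike, or the least alike, to each of the 3 by Pearson's r, and the brightest probe set stood for its locus. Alternatives were other floors, filters, scalings, variance models and blocks, only the groups compared, and each array or experiment left out.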

Additional observations from a re-analysis of the deposited data

How the results depend on the processing

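Of 192 refits of the 3 genes with all arrays of the groups compared, 182 kept their direction and their side of the threshold. With the replicate block APS3 passed in wild type (1.07) and chl1-5 (0.98) and SIR in the mean response (0.25). As a random effect the block made APS3 pass in both (1.07, adjusted p = 0.0271, and 0.98, adjusted p = 0.0485) and SIRB in the mean response (-0.18). Neither block changed another call of the 3. Values near 0 changed sign with the scaling and were called in neither setting. Under median scaling the difference of responses was -0.06 for SIR and -0.05 for SIRB, the SIRB difference after nitrate was -0.01 and the HEMB1 mean response 0.01. Under quantile normalization the SIRB difference of responses was 0 after rounding and the APS4 mean response -0.02.

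With 1 array or 1 experiment left out, APS3 ran from 0.80 to 1.51 in wild type, 0.72 to 1.39 in chl1-5 and 0.77 to 1.37 in the mean response. The differences of responses ran from -0.53 to 0.32 for APS3, -0.15 to 0.17 for SIR and -0.03 to 0.10 for SIRB. The genotype differences before nitrate ran from -0.09 to 0.14, -0.25 to 0.07 and -0.03 to 0.06, and after nitrate from -0.50 to 0.35, -0.20 to 0.07 and -0.01 to 0.07. The mean responses of APS4 and HEMA2 ran from -0.05 to 0.06 and from -0.08 to 0.44. None of these differences passed.

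Calls over all probe sets numbered 797 in wild type, 552 in chl1-5, 1998 in the mean response, 5 in the difference of responses, and 4 before and 32 after nitrate between genotypes. They were 1690, 1415, 3452, 17 and 60 with the replicate block (the 4 before nitrate again numbered 4) and 1499, 1173, 3214, 8 and 52 with the random block. Fits of only the groups compared gave 336 in chl1-5 and 2 before nitrate, the stricter filter 2 before nitrate, and eBayes without trend 3 in the difference of responses. Median scaling moved the split of calls from 491 higher and 306 lower to 609 and 183 in wild type, and from 917 and 1081 to 1058 and 624 in the mean response. Leaving out arrays or experiments gave 177 to 927, 74 to 854, 501 to 2418, 0 to 4, 0 to 3 and 2 to 21. The causes of these changes were not tested. The number of arrays limits the precision.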

Other observations

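The smaller response of APS3 in replicate 1 was set beside the responses of the probe sets called higher in the mean response, which include APS3. This comparison was made after the APS3 values were seen. APS3 averaged 0.34 over both genotypes in replicate 1 and 1.37 in replicates 2 and 3 on the log2 scale, a gap of -1.02. Of the 917 probe sets called higher in the mean response, 654 (71.3%) had the smaller response in replicate 1, with a median gap of -0.20. Among the 340 of them with a mean response of at least 1, 261 (76.8%) had the smaller response there, and the median gap was -0.47. A gap as large as that of APS3 or larger was found for 88 of these 340 (25.9%), APS3 itself included.

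Protein-coding genes up to 5 places away on the chromosome were also read, by order alone, after a probe set of a neighbour was seen to run like SIR. DME, a DNA glycosylase gene next to SIR, has 2 probe sets, whose difference was not tested. The dimmer one, 250835_at (mean signal 160), had r = 0.959 with SIR over the 12 arrays and a mean response of 0.32 (SE 0.19, adjusted p = 0.299, 0.0303 with the block). The brighter one, 250836_at (mean signal 292), had r = 0.779 and a mean response of 0.14 (SE 0.11, adjusted p = 0.468, 0.244 with the block). Near SIRB, AT1G50110, 4 places away, rose by 0.38 (SE 0.07, adjusted p = 0.00456) and ran opposite to SIRB (r = -0.808). Near APS3, NRPE7, a subunit of RNA polymerase V, 3 places away, fell by 0.32 (SE 0.09, adjusted p = 0.0410, r = -0.833). Named and tested were 3 neighbours of APS3, 4 of SIR and 5 of SIRB. Without the block AT1G50110 and NRPE7 were the only ones called in the mean response, where 14% of all probe sets were.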
